A study of Haematococcus lacustris with 4 samples.

Results

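The genes described here are 89 genes of the green microalga Haematococcus lacustris, also called Haematococcus pluvialis, that were listed in every library and were lower at 2 mM than at 15 mM nitrate. They were chosen from the deposited gene expression table by their values. A gene had to be above 0 in all 4 libraries, and the smaller of its 15 mM values had to be at least 2 times the larger of its 2 mM values. The rule was met by 89 of 2148 genes above 0 in all 4 libraries (4.14%), in a table of 13248 genes. All 4 libraries entered the choice, so the difference between the conditions is a description, and no test on these libraries can support it.

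All libraries came from strain CCAP 34/8, grown with light as the energy source in continuously fed bubble columns under a simulated day and night cycle with controlled temperature and pH. The feed held 2 mM nitrate for 2 libraries, called low-nitrate here, and 15 mM nitrate for the other 2, called high-nitrate. The labels do not say whether the replicates of a condition were separate cultures, so the spread between them may be technical. The study's title concerns macrozoids, which are motile cells, and palmelloid cells, which are not motile, but the labels give no cell form for any library.

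Green algae take up nitrate and reduce it to ammonium, which is built into amino acids through glutamine and glutamate. Nitrogen is needed for protein and chlorophyll, and cells short of it turn towards storage lipid and starch. In Haematococcus, shortage of nitrogen and strong light also favour the red ketocarotenoid astaxanthin, stored in lipid droplets of palmelloid cells and cysts. None of the 89 identifiers could be paired with a gene product: 0 of them, and 0 of the 13248 identifiers of the table, matched the available gene table, which is of another assembly of the species. The roles of the lowered genes and their sequences are therefore not given, and members other than a named pair are described by their place in level or ratio.

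Levels are given in FPKM (fragments per kilobase of gene, scaled to the mapped fragments of the library), the unit the values were taken to have. Of the table's genes, 3262 and 3435 were above 0 in the low-nitrate libraries and 11658 and 10794 in the high-nitrate libraries. An abundance in FPKM is relative to all RNA of the library, and in a culture fewer cells that express a gene and less of its RNA per cell cannot be told apart.

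The lowered genes covered a wide span of levels and were on the whole abundant. At 15 mM their levels ran from 12.4 to 34535 FPKM in replicate 1, with a median of 958, and from 17.0 to 35254 FPKM in replicate 2, with a median of 1282. At 2 mM they ran from 3.44 to 11316 FPKM in replicate 1, with a median of 242, and from 0.692 to 11690 FPKM in replicate 2, with a median of 260. As the rule asks, every gene was listed at low nitrate, and the median of the lowered genes there was above that of the genes they were drawn from. Those 2148 genes had medians of 122 and 115 FPKM at high nitrate and of 172 and 175 FPKM at low nitrate.

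**Figure D1:**
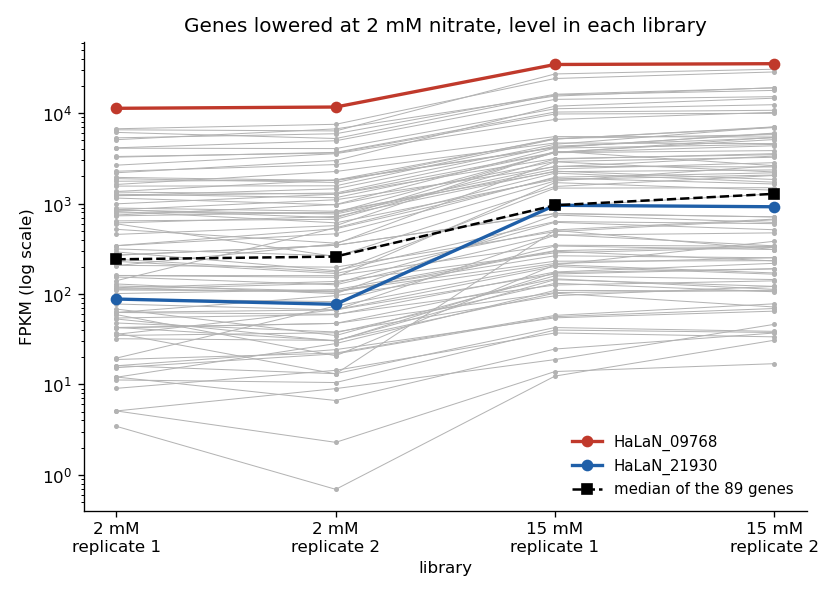
Level of each of the 89 lowered genes in each library, in FPKM on a log scale. Grey lines join the values of 1 gene, coloured lines mark HaLaN_09768 and HaLaN_21930, and the dashed line is the median of the 89 genes, at 242 and 260 FPKM at 2 mM and at 958 and 1282 FPKM at 15 mM.

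The ratio of the smaller high-nitrate value to the larger low-nitrate value, which the rule set at 2 or more, had a median of 2.73 over the 89 genes and reached 10.5. It lay under 2.5 in 34 genes, from 2.5 to under 3 in 26, from 3 to under 4 in 15, from 4 to under 5 in 8, and at 5 or more in 6. Most of the lowered genes thus lay under 3, with a short tail above 5. Taken on the group means, the median log2 ratio of low to high nitrate was -1.70 for the 89 genes, against 0.37 for all genes above 0 in all 4 libraries.

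**Figure D2:**
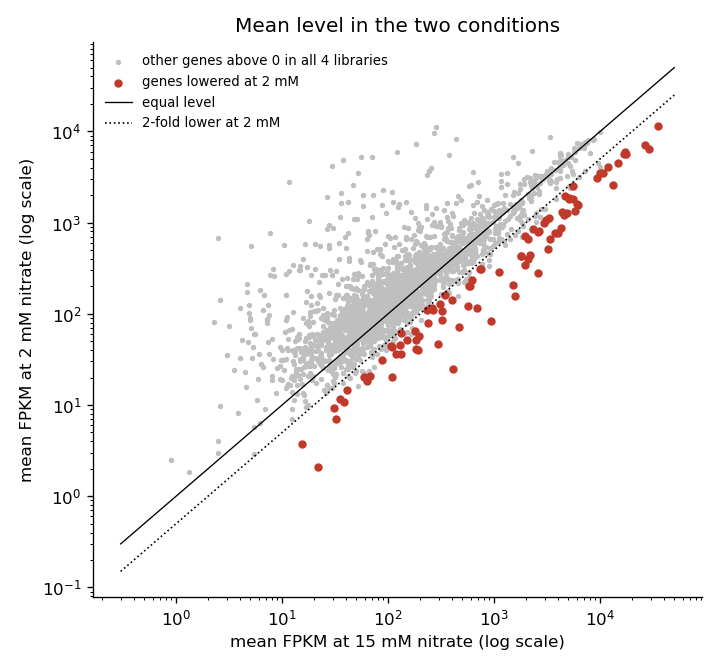
Mean FPKM at 2 mM against mean FPKM at 15 mM nitrate, both on log scales, for the 2148 genes above 0 in all 4 libraries. The 89 lowered genes, in red, lie below the dotted line of a 2-fold difference and extend along the whole range of levels up to the most abundant gene at 15 mM.

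The 10 genes with the highest mean level at high nitrate, out of all 13248, were all among the lowered genes. This ranking uses values that also entered the rule, and it is given without a test. Their means at high nitrate ran from 10526 to 34894 FPKM. At 2 mM the same 10 genes stood between place 2 and place 116 of the ranking of all genes. The smaller high-nitrate value was 2.31 to 4.15 times the larger low-nitrate value in these genes. Replicates of the 10 genes differed by at most 1.24-fold at high nitrate and by at most 1.36-fold at low nitrate. Of the 20 highest genes at high nitrate, 12 were lowered genes, and of the 100 highest, 31 were. Of the 100 highest genes at low nitrate, 11 were.

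The most abundant gene at high nitrate was HaLaN_09768, which stood at 11316 and 11690 FPKM in the low-nitrate libraries and at 34535 and 35254 FPKM in the high-nitrate libraries. The rule leaves no overlap between the 2 conditions. Replicates lay close together, with means of 11503 ± 264 FPKM (SD, n = 2) at low nitrate and 34894 ± 509 FPKM (SD, n = 2) at high nitrate. Its log2 fold change, on log2(FPKM + 1) as low minus high nitrate, was -1.60 (limma, SE 0.023). Its value in replicate 1 at high nitrate is deposited without a decimal point, as 34534625, and was divided by 1000 as the rule asks. With the value as deposited the log2 fold change would be -6.58 with an SE of 4.12, while the gene would still meet the rule through its replicate 2. With the divided value, the SE depended on the fit. In fits of all 4 libraries it ran from 0.0019 after quantile normalization to 0.138 without an intensity trend. Despite the lower level, HaLaN_09768 was the second most abundant gene at low nitrate.

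The gene next in level at high nitrate stood at 6547 and 6363 FPKM at low nitrate and at 27145 and 30609 FPKM at high nitrate. It had the largest ratio among the 10, 4.15, and went from place 2 at high nitrate to place 21 at low nitrate. The third gene by level stood at 6722 and 7532 FPKM at low nitrate and at 24177 and 28564 FPKM at high nitrate. That both low-nitrate libraries lay below both high-nitrate libraries in these genes follows from the rule, so nothing is read from it. Replicates of these genes again lay close together. The gene eighth in level was the one that went from place 8 to place 116, with 2192 and 2991 FPKM at low nitrate and 11947 and 14640 FPKM at high nitrate. Ranked only among the genes above 0 in all 4 libraries, 88 of the 89 genes held a lower place at low nitrate, by a median of 393 places over the 89, and HaLaN_09768 kept the first place. The rule asks for a lower level at low nitrate, so nothing is read from this count. It did not hold throughout in the ranking of all genes, where the lowered gene lowest in level went from place 6312 at high nitrate to place 4237 at low nitrate. Far fewer genes were above 0 at low nitrate (3262 and 3435) than at high nitrate (11658 and 10794), so nothing is read from that gain in place.

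The lowered genes held 21.3% and 23.8% of the summed FPKM of the high-nitrate libraries and 7.35% and 7.82% of that of the low-nitrate libraries. The mean share was 22.6% ± 1.78 (SD, n = 2) at high nitrate and 7.59% ± 0.336 (SD, n = 2) at low nitrate. The 89 genes are 0.672% of the table. A list chosen by its values must shift in this way: the 352 genes that met the mirror rule, a smaller low-nitrate value at least 2 times the larger high-nitrate value, held 21.5% and 21.1% of the summed FPKM at low nitrate and 3.22% and 2.77% at high nitrate. The summed level of the 89 lowered genes was 336771 ± 28995 FPKM (SD, n = 2) at high nitrate and 98822 ± 5283 FPKM (SD, n = 2) at low nitrate. The other genes above 0 in all 4 libraries summed to 831810 ± 13408 FPKM at high nitrate and 1071065 ± 10416 FPKM at low nitrate (SD, n = 2), so the lower sum of the 89 genes stood beside a higher sum of the rest of that group. FPKM is relative, and the 89 genes were set apart for being lower, so nothing is read from the higher sum of the rest. The genes not above 0 in every library summed to 322812 ± 5065 FPKM at high nitrate and 132343 ± 17178 FPKM at low nitrate (SD, n = 2).

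**Figure D3:**
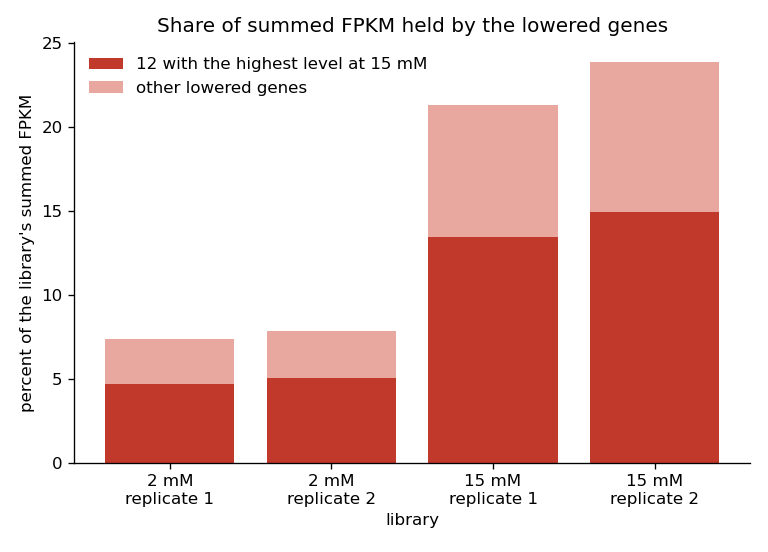
Percent of each library's summed FPKM held by the lowered genes. The dark part is the 12 of them with the highest mean at 15 mM and the light part the other 77; the full bars reach 7.35% and 7.82% at 2 mM and 21.3% and 23.8% at 15 mM.

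A few genes carried most of this share. The 12 lowered genes with the highest mean at high nitrate held 62.8% of the summed level of the 89 genes there. They took 13.4% and 14.9% of the summed FPKM of the high-nitrate libraries and 4.70% and 5.06% of that of the low-nitrate libraries.

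The largest ratio was found in HaLaN_21930, which stood at 88.0 and 76.9 FPKM in the low-nitrate libraries and at 958 and 922 FPKM in the high-nitrate libraries. Both replicate pairs lay close together, and the smaller high-nitrate value was 10.5 times the larger low-nitrate value. Its log2 fold change was -3.50 (limma, SE 0.167). It went from place 239 of all genes at high nitrate to place 1891 at low nitrate.

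The gene with the second largest ratio, 8.81, was more abundant, at 160 and 153 FPKM at low nitrate and 1705 and 1408 FPKM at high nitrate. The third, with a ratio of 8.43, stood at 36.8 and 13.1 FPKM at low nitrate and at 506 and 310 FPKM at high nitrate. Its replicates differed more, and the ratio of its larger high-nitrate to its smaller low-nitrate value was 38.6. The remaining genes with a ratio of at least 5 had 6.23, 6.13 and 5.77, at mean levels of 2566, 1491 and 461 FPKM at high nitrate. None of the 6 genes with the largest ratios was among the 10 most abundant, whose ratios stayed at or under 4.15.

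**Figure D4:**
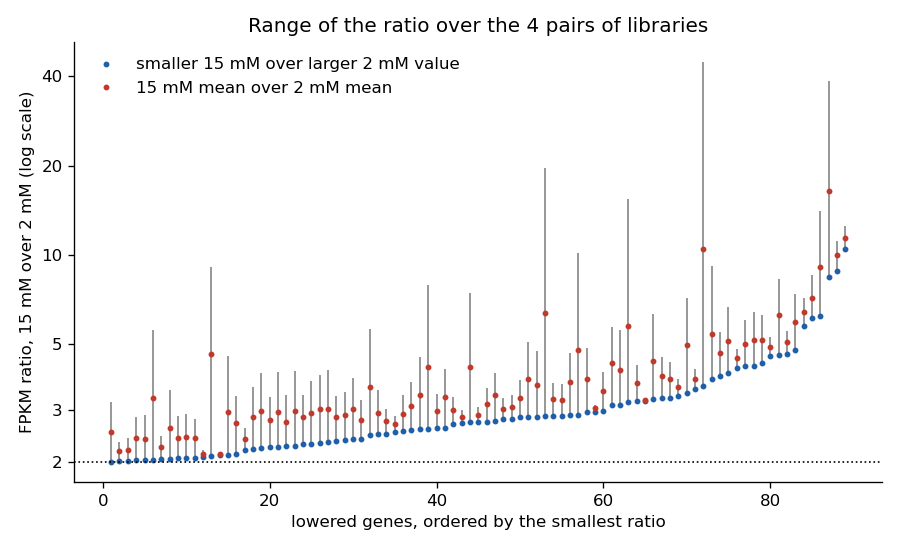
FPKM ratio of 15 mM to 2 mM, on a log scale, for the 89 lowered genes ordered by their smallest ratio. Grey bars span the ratios of the 4 pairs of libraries, blue points are the smallest ratio, from 2.00 to 10.5, and red points the ratio of the group means; long bars are genes whose replicates differed.

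The spread between replicates was smaller among abundant lowered genes. Of the 89 genes, 83 lay within 1.5-fold between the high-nitrate replicates and 70 between the low-nitrate replicates. More than 2-fold between replicates was found in 2 genes at high nitrate and in 8 at low nitrate. The 45 genes averaging 1000 FPKM or more at high nitrate had an SD of the log2 ratio between replicates of 0.27 at high nitrate and 0.45 at low nitrate. In the 44 genes under 1000 FPKM these SDs were 0.41 and 0.74. The median smallest ratio was 2.87 in the abundant genes and 2.39 in the others, with ranges of 2.02 to 8.81 and 2.00 to 10.5. The rule itself favours genes with close replicates, so these spreads do not stand for other genes. The widest ratio range belonged to a gene at 3.44 and 0.692 FPKM at low nitrate and 12.4 and 30.8 FPKM at high nitrate, whose larger high-nitrate value was 44.5 times its smaller low-nitrate value.

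The high-nitrate replicates also differed in a direction. Replicate 2 was higher than replicate 1 in 57 of the 89 genes (64.0%), in all of the 10 most abundant and in 36 of the 45 genes of at least 1000 FPKM. Among the 170 other genes of at least 1000 FPKM at high nitrate that were above 0 in all libraries, replicate 2 was higher in 77. The median log2 ratio of replicate 2 to replicate 1 at high nitrate was 0.14 for the lowered genes and -0.06 for all genes above 0 in all 4 libraries. At 2 mM, replicate 2 was higher in 47 of the 89 genes.

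One pair of lowered genes, chosen after its values were seen, had nearly the same level in every library. One gene stood at 269 and 346 FPKM at low nitrate and 778 and 713 FPKM at high nitrate, and the other at 269 and 346 FPKM at low nitrate and 772 and 713 FPKM at high nitrate. They differed by at most 0.831% in any library. Among all genes above 0 in all 4 libraries, 3 pairs agreed within 2% in every library, and this was the only pair that held lowered genes. Whether the pair are near-identical copies that share reads was not tested.

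The share of lowered genes differed with the level of the genes, which is given as a description. Level is taken here as the geometric mean over the 4 libraries, so that neither condition sets it alone. Of the 35 genes above 0 in all libraries with a geometric mean of at least 5000 FPKM, 12 were lowered (34.3%), and of the 180 at 1000 to 5000 FPKM, 24 were (13.3%). The share was 4.49% of 178 genes at 500 to 1000 FPKM, 2.38% of 924 at 100 to 500, 2.88% of 416 at 50 to 100 and 2.65% of 415 under 50 FPKM. The mirror rule was met by 352 of the 2148 genes (16.4%), so that raised genes outnumbered lowered ones in the values as scaled. That order depended on the scaling. Among the 2148 genes, limma called 140 lower and 382 higher at low nitrate, at an adjusted p under 0.05. With libraries centred on the median of these genes, it called 303 lower and 221 higher. The mirror rule showed the opposite course with level, with 22.7% of the genes under 50 FPKM and 1 of the 35 genes (2.86%) of at least 5000 FPKM. By group means alone, at a factor of 2, 14 of the 35 most abundant genes were lower and 1 was higher at low nitrate, while 34 of the 924 genes at 100 to 500 FPKM (3.68%) were lower and 216 higher.

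**Figure D5:**
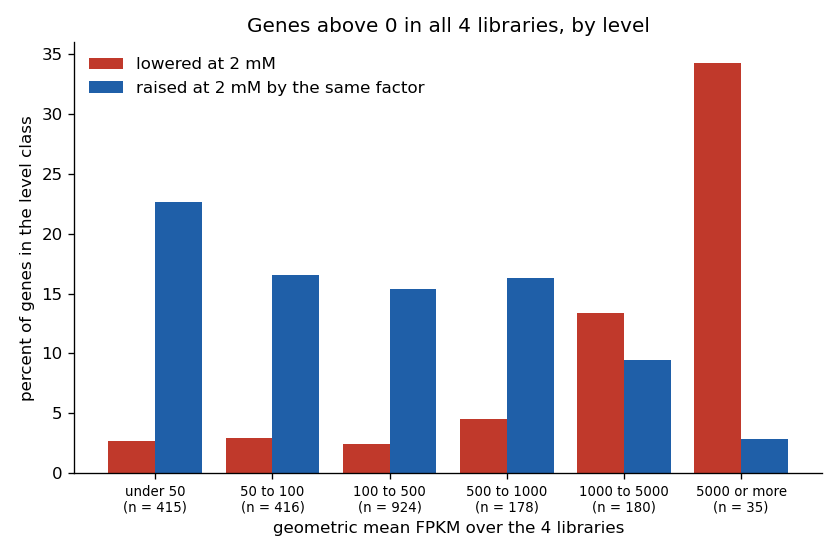
Percent of genes lowered (red) or raised (blue) at 2 mM by the factor of 2 that the rule uses, in classes of the geometric mean FPKM over the 4 libraries, for genes above 0 in all of them. Lowered genes make up 2.38% to 2.88% of the classes under 500 FPKM and 34.3% of the highest, where 1 gene was raised.

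The number of genes listed above 0, 3262 and 3435 at low against 11658 and 10794 at high nitrate, moved with the condition, and its part in this course was not tested. A total of 5596 genes were above 0 in both high-nitrate libraries and at 0 in both low-nitrate libraries, with a median mean of 15.2 FPKM at high nitrate. A further 164 genes had 1 of the low-nitrate libraries at 0 and met the factor of 2 in the other. Their means at high nitrate had a median of 50.4 FPKM and reached 1952 FPKM. Genes listed at 0 at low nitrate cannot meet the rule, so the share of lowered genes at low level is no statement about low genes in general. The median log2 ratio of low to high nitrate moved in the same sense with level, from 0.68 under 50 FPKM to -0.11 at 5000 FPKM or more.

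Abundant genes were also lost in this way, though fewer than met the rule. Of the 226 genes above 0 in both high-nitrate libraries with a mean of at least 1000 FPKM there, 45 were lowered genes, 163 differed by less than the rule asks, 7 were raised, 2 were at 0 in 1 of the low-nitrate libraries and 9 in both. Of the 48 genes of at least 5000 FPKM, 19 were lowered, 28 differed by less and 1 was listed at 0 in both low-nitrate libraries. Of the 12 genes of at least 10000 FPKM, 10 were lowered. These classes are set by the high-nitrate level, where the lowered genes are high by the rule. The highest mean at low nitrate was 12865 FPKM, so the class of at least 10000 FPKM had no room for raised genes. A raised gene in the class of at least 5000 FPKM would need at least 10000 FPKM in both low-nitrate libraries. The 10th highest mean at low nitrate was 8010 FPKM, so that class had little room for raised genes either.

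At the threshold there was no gap. The 3 genes just inside had ratios of 2.002, 2.01 and 2.02, and the 3 just outside had 1.99, 1.98 and 1.97. The included gene nearest to the threshold stood at 47.8 and 38.0 FPKM at low nitrate and 95.7 and 121 FPKM at high nitrate. The nearest excluded gene stood at 226 and 208 FPKM at low nitrate and 460 and 449 FPKM at high nitrate, with closer replicates than the included one. A further 73 genes had a ratio from 1.5 to under 2.

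Fitted over all 11815 genes averaging 1 FPKM or more, limma called 77 of the 89 genes lower at low nitrate at a Benjamini-Hochberg adjusted p under 0.05. This threshold was passed in that direction by 5326 genes, or 45.1% of all tested, and by 140 of the 2148 genes above 0 in all 4 libraries, or 6.52%. The rule used the same contrast, so nothing is read from the count. The 12 genes not called had a median of 130.1 FPKM at high nitrate and a median difference of 1.91-fold between the low-nitrate replicates, against 1960 FPKM and 1.17-fold in the 77. The count was 24 without replicate 1 and 20 without replicate 2 of the high-nitrate libraries, in fits that take the spread from the low-nitrate libraries alone, and 48 with the replicate number as a block. After quantile normalization, which gives the many zeros at low nitrate a shared value above 0, 7 of the 89 genes changed sign, all of them between 15.4 and 40.6 FPKM at high nitrate, and 1 of these was called higher. The other 82 kept their direction, and HaLaN_09768 then had a log2 fold change of -0.25.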

How the data were processed

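RNA sequencing of 4 libraries, 2 each at 2 mM and 15 mM nitrate, was used, grouped by sample titles. No label names a unit. Those deposited values were read as FPKM because they hold decimals, are never negative and sum to unequal totals too large for TPM. Read depth is unknown, so no intervals are given. FastQC, HISAT2, StringTie and limma are named, per the submitters' processing notes. Their versions, the strand setting, the build and the gene models: not given in the sources used here. Libraries were made with a total RNA kit, per the labels' protocols, while the molecule is labelled polyA RNA.

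A total of 25 values above 0 without a decimal point were divided by 1000, 2 of them in lowered genes. Levels, ratios and shares are descriptions. With R 4.3.3, limma 3.58.1 was fitted to log2(FPKM + 1) of genes averaging 1 FPKM or more, with an intensity trend and two-sided tests, and the fit was tested on simulated data. The genes and alternatives were chosen with earlier results of these data known. The named pair are the lowered genes with the highest mean at 15 mM and with the largest ratio. No gene list was used, as no identifier could be paired with a product.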

Additional observations from a re-analysis of the deposited data

How the results depend on the processing

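The rule was met by 89 genes as reported, by 162, 29 and 14 at factors of 1.5, 3 and 4, by 144 on group means and by 192 when libraries were centred on the median of the genes above 0 in all of them. With 1 library left out the count ran from 105 to 258; it was 237 and 258 without the first and second low-nitrate library, when genes at 0 in that library can enter. Scaling to equal sums gave 67 genes and comparing same-numbered libraries 103, both within 1.5 times. The limma count of 77 was 48 with the replicate block, 20 to 73 with 1 library left out and 56 to 86 under the other alternatives. The correlation between deviations of same-numbered libraries was -0.001 over 11815 genes. Many of these genes were at 0 in both low-nitrate libraries, so the value cannot decide whether the numbers pair the libraries. The median log2 ratio of -1.70 was -1.51 at equal sums, -2.26 after the centring and -1.76 to -1.63 with 1 library left out. Over every gene in the limma fit the log2 fold change had a median of -2.41, which became 0.24 with quantile normalization and -2.70 with the centring; for the lowered genes these medians were -1.68, -1.68 and -2.22. The share at 15 mM, 22.6%, was 55.0% with values as deposited and 28.8% of the genes above 0 in every library. The share at 2 mM, 7.59%, was 4.74% and 8.45% in these settings. The log2 fold change of HaLaN_09768, -1.60, was -6.58 with values as deposited, where 1 of its values is 1000 times larger. With 1 library left out, its partner is taken to vary as the other condition does. Depth is unknown, so detection limits are too.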
